A study of Homo sapiens and Rattus norvegicus with 26 samples.

Results

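The genes described here build the mitotic spindle, attach chromosomes to it and divide the cell. There are 51 of them, written out by name in 11 roles, and all 51 were found by symbol among the 43382 genes with values in the human tables and, after rat symbols were written in capitals, among the 33289 genes of the rat table. Whether their expression changed with fluid shear was asked in 4 cultures on microfluidic chips, from which RNA was sequenced after 72 h at a high shear of 12 dyne/cm2 or at a low shear that the sample labels give as 0.1 dyne/cm2, while the study's methods state a higher low shear. hECs are endothelial cells that carry no organ's signature, hCECs are cells of the same progenitors in which Wnt signaling was activated with the GSK3 inhibitor CHIR99021, and hBMEC-like cells form a tight barrier. These 3 human models were all made from IMR90-4, a single line of induced pluripotent stem cells (iPSCs), with 3 libraries at each shear, and the replicates were separate differentiations. rBMECs are primary cells from the brain microvessels of male Sprague–Dawley rats, with 4 libraries at each shear, from isolations for which brains were pooled where several were needed. The labels number 4 rat replicates, but the study's text states fewer isolations, so some rat replicates may share one. The p-values for shear therefore measure the spread of the change within pairs, between differentiations of a single line or between rat replicates. Those for levels at low shear measure the spread of the level between differentiations. The medium also differed, with VEGF and FGF2 for hECs and hCECs, CHIR99021 in the hCEC chips, and serum, puromycin, heparin and FGF2 for rBMECs. For hBMEC-like cells the methods list FGF2 and retinoic acid until shear began, and neither these nor VEGF under shear. Hence the model, its medium and, for rBMECs, the species cannot be told apart.

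At mitosis each pair of sister chromatids is caught by microtubules at its kinetochores, a checkpoint holds the cell until all are attached, and the anaphase-promoting complex then triggers the cut that lets sisters part. Kinesins and microtubule-associated proteins shape the spindle, condensin compacts the chromosomes, and a midzone of antiparallel microtubules directs the ring that pinches the cell apart. Most of these genes are transcribed mainly in late S phase, G2 and mitosis and kept off in resting cells, and the endothelium of adult vessels is known to divide rarely. Their promoters are known for a pair of elements. The CCAAT box is read by NF-Y, and the cell cycle genes homology region (CHR, of the letters TTTGAA or TTCGAA) is read by the MuvB core, which represses in the DREAM complex and activates with B-MYB and *FOXM1*.

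The promoters of 5 members are shown, those with the smallest p in hECs among the members for which the reference table had an entry, because they let a reader see these elements in genes that rose together. The sequences are RefSeq's for GRCh38.p14, each 300 bases long, from 250 bases before to 50 bases after the annotated start of transcription, and written 5′ to 3′ along the gene. They lie at chr15:41332631-41332930 on the plus strand (*NUSAP1*), chr17:40417847-40418146 on the minus strand (*TOP2A*), chr12:53268049-53268348 on the plus strand (*ESPL1*), chr2:110678014-110678313 on the minus strand (*BUB1*) and chr16:23678639-23678938 on the plus strand (*PLK1*). Capitals mark the CHR letters and the CCAAT letters on either strand, so that ATTGG is CCAAT and TTCAAA is TTTGAA read from the other strand.
NUSAP1: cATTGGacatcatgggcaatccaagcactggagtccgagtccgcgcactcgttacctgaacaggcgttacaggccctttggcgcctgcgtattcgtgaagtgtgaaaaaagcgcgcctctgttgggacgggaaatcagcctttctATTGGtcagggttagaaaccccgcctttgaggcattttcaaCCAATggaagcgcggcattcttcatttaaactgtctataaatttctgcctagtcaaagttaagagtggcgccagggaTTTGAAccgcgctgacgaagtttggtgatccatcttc
TOP2A: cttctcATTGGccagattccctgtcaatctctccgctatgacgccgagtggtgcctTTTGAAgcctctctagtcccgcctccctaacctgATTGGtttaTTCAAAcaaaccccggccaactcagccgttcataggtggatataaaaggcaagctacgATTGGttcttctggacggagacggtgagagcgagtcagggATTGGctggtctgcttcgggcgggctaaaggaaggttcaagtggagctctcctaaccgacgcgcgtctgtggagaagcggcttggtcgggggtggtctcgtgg
ESPL1: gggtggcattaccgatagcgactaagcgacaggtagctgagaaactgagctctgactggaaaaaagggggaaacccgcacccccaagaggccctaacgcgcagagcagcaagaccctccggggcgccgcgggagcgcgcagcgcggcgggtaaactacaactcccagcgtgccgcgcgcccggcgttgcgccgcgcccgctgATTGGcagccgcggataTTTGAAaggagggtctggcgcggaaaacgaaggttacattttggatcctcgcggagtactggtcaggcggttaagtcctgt
BUB1: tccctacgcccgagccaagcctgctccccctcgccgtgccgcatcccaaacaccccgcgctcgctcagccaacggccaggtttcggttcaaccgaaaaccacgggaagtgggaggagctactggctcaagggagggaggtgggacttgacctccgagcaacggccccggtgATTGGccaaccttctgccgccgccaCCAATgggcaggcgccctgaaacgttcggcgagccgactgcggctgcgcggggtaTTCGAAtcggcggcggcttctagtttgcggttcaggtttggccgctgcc
PLK1: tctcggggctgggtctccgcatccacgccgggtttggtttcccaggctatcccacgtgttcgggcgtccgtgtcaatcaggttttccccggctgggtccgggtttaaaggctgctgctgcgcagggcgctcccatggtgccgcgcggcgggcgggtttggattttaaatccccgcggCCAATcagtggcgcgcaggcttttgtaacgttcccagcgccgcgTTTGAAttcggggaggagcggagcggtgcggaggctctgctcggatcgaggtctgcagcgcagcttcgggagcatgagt

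In *ESPL1*, *PLK1* and *BUB1* the CHR letters stood close to the start, with their first base at −31, −29 and 2, and a CCAAT box began upstream of them at −48, −73 and −54. *NUSAP1* had its CHR letters at 14 and its nearest CCAAT box at −64. *TOP2A* had them farther out, at −194 and, on the other strand, at −151, with CCAAT letters at −244, −160, −93 and −53. The matches did not overlap one another in these promoters. An entry was found for 41 of the 51 members, and 33 of these 41 (80.5%) held TTTGAA or TTCGAA on either strand in a promoter, against 15.7% of the 11211 genes tested in hECs that had an entry and 16.4% of the 35116 single promoters in the table. CCAAT was in 75.6% of the members, in 42.6% of the genes tested in hECs and in 34.6% of all promoters, and both elements were in 61%, 6.48% and 6.38%. The E2F letters TTTCCCGC or TTTGGCGC were in 3 of the members (7.32%), in 4.53% of the genes tested in hECs and in 2.27% of all promoters. The 8 members without CHR letters in this window were *AURKB*, *CENPE*, *CENPK*, *KIF20A*, *KIF2C*, *NCAPH*, *PTTG1* and *SPC24*. These shares are descriptions of letters, and no binding was measured.

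Library totals ran from 9790999 counts (low-shear replicate 2 of the hCECs) to 47006272, and the second lowest total was 25269733 counts. The hCEC library of that lowest total also stood apart in its markers, with a summed level of 10 endothelial marker genes of 9499.8 CPM where the other low-shear hCEC libraries had at least 15803 CPM, so hCEC values are given with and without replicate 2. Levels are CPM, the count of a gene scaled to a common library size, after TMM scaling of the libraries within a model. As a check of the labels, the same 10 markers summed to 14779 to 16156 CPM in low-shear hECs and to 83.001 to 98.7 CPM in low-shear hBMEC-like cells, in which *PECAM1* reached at most 0.226 CPM while 10 epithelial markers summed to 10246 to 12339 CPM. hBMEC-like cells are therefore named as labelled, with endothelial transcripts far below those of hECs but not all absent. Over all their libraries *CDH5* was at 29.4 to 45.3 CPM and *TEK* at 20.9 to 36.1 CPM. In hECs these were at 2439 to 3410 and 310 to 511 CPM. *CLDN5* and *ERG*, like *PECAM1*, were near the floor in hBMEC-like cells, at most at 0.158 and 0.185 CPM. Among the members, *SPC25* and *KIFC1* were at most at 1.33 CPM in any human library and are counted as uncertain. *SPC25* lies within the span of the coding gene *NOSTRIN*, 8 members in all overlap a coding gene in RefSeq, and how reads shared by several genes were counted is not given in the sources used here.

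The summed level of the 51 members was higher at high shear in hECs and lower in hBMEC-like cells, and it differed in size among the models. In hECs the members summed to 657, 705 and 798 CPM at low shear and to 1794, 1385 and 1627 CPM at high shear, so that every high-shear library lay above every low-shear library. hCECs had 309, 442 and 275 CPM at low shear and 443, 469 and 328 CPM at high shear, which overlapped. In rBMECs the sums were 2253, 898, 2339.6 and 1649 CPM at low shear and 1209, 1025, 1741 and 745 CPM at high shear. Here the low-shear library of replicate 2 had less than the other low-shear replicates, and its pair was the one with a higher sum at high shear. hBMEC-like cells had the highest sums, at 6436, 6314 and 6475 CPM at low shear and 5681, 5820.0 and 6145 CPM at high shear, with every high-shear library below every low-shear library. In such bulk samples more cycling cells and more of these transcripts per cycling cell cannot be told apart.

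**Figure D1:**
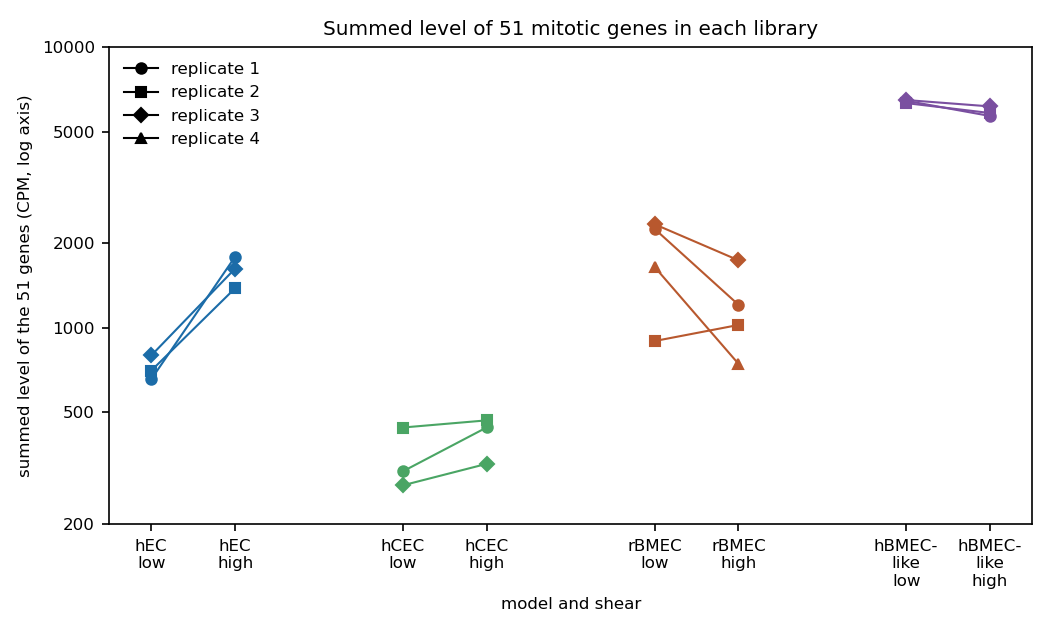
Summed level of the 51 members (y axis, CPM, log axis) in each library, by model and shear (x axis), with a line joining the low- and high-shear library of a replicate number. All 3 lines rise in hECs, from 657 to 1794 CPM for replicate 1, the 3 lines of hBMEC-like cells fall, and in rBMECs 3 of 4 lines fall while that of replicate 2 rises from 898 to 1025 CPM.

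In hECs nearly all of the mitotic genes tested were higher at high shear. Of the 50 members tested (*SPC25* had too few counts), 44 were higher at an adjusted p under 0.05 and 0 were lower, where 7.87% of all 15488 genes tested were higher and 8.23% lower. The median log2 fold change of the members was 1.30 against 0.00015 for all genes, and the changes ran from 0.050 (*BUB3*) to 1.94 (*KIF15*). For 49 of the 50, every high-shear library lay above every low-shear library, as it did for 15.6% of all genes, and the exception was *BUB3*. The members that did not pass the test were *BUB3*, *CENPH*, *CENPK*, *CENPM*, *KIFC1* and *ECT2*. By replicate the median change was 1.53, 1.06 and 1.13, and without replicate 1 the number higher was 30. Each log2 fold change sets high over low shear and comes from edgeR's quasi-likelihood fit with the replicate as a block, and adjusted p-values are over all genes tested.

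Both general marks of cycling cells rose in hECs. *MKI67*, which encodes the antigen Ki-67 that coats mitotic chromosomes and is used to count cycling cells, was at 46.2, 58.1 and 62.6 CPM in the low-shear libraries and at 188, 122 and 175 CPM in the high-shear libraries, given here and below in the order of the replicates. Its lowest high-shear value was thus well above its highest low-shear value, and its log2 fold change was 1.52 ± 0.17 (SE), with an adjusted p of 0.00125. *TOP2A*, the topoisomerase that untangles sister chromatids, was at 27.99, 32.6 and 39.96 CPM in the low-shear libraries and at 129, 101 and 119 CPM in the high-shear libraries. All high-shear values exceeded all low-shear values, and the log2 fold change was 1.80 ± 0.13 (SE), with an adjusted p of 2.76e-04.

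The genes that start anaphase rose as well, with 4 of 4 called and a median of 1.52 on the log2 scale. *CDC20*, which activates the anaphase-promoting complex, was at 8.31, 13.4 and 11.3 CPM in the low-shear libraries and at 33.6, 24.1 and 28.3 CPM in the high-shear libraries. *UBE2C*, the ubiquitin-conjugating enzyme of that complex, was at 5.73, 7.31 and 5.91 CPM in the low-shear libraries and at 21.6, 19.6 and 18.2 CPM in the high-shear libraries. Neither gene had overlapping groups, and the log2 fold changes were 1.39 ± 0.21 (SE), with an adjusted p of 0.00464, for *CDC20* and 1.64 ± 0.14 (SE), with an adjusted p of 5.15e-04, for *UBE2C*. The protease that cuts cohesin (separase, *ESPL1*) and its inhibitor securin (*PTTG1*) rose by 1.67 and 1.21.

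The mitotic kinases *PLK1* and *AURKA* differed in size of change. *PLK1*, which acts at centrosomes, kinetochores and the midzone, was at 15.9, 10.7 and 16.03 CPM in the low-shear libraries and at 39.9, 33.4 and 34.8 CPM in the high-shear libraries, without overlap, a log2 fold change of 1.35 ± 0.12 (SE), with an adjusted p of 5.02e-04. *AURKA*, the kinase that matures centrosomes, rose from 11.2 ± 0.866 to 19.4 ± 1.12 CPM (mean ± SD, n = 3). All 4 members of the chromosomal passenger complex, which frees wrongly attached microtubules, were called, with a median of 1.36. Its kinase *AURKB* was at 5.16, 8.43 and 5.86 CPM in the low-shear libraries and at 19.2, 17.3 and 19.05 CPM in the high-shear libraries, and the log2 fold change was 1.53 ± 0.19 (SE), with an adjusted p of 0.00194. The high-shear values of *AURKB* lay far above the low-shear ones. Survivin (*BIRC5*) and borealin (*CDCA8*) rose by 1.43 and 1.28, and the scaffold *INCENP* by 0.79.

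In the spindle assembly checkpoint 4 of 5 members rose. *BUB1*, a kinase that recruits the checkpoint proteins to kinetochores, was at 8.03, 8.03 and 9.54 CPM in the low-shear libraries and at 23.96, 19.9 and 23.3 CPM in the high-shear libraries. The high-shear libraries were all above, with a log2 fold change of 1.39 ± 0.12 (SE), with an adjusted p of 5.00e-04. *BUB1B* (BubR1, a part of the complex that inhibits *CDC20*), *TTK* (the kinase MPS1) and *MAD2L1* (MAD2) rose by 1.67, 1.45 and 0.97. *BUB3*, which carries *BUB1* and BubR1 to kinetochores and is also transcribed outside mitosis, was at 70.2, 94.7 and 78.6 CPM in the low-shear libraries and at 81.3, 79.6 and 90.9 CPM in the high-shear libraries. Its groups overlapped, and replicate 2 was lower at high shear. The log2 fold change of *BUB3* was 0.050 ± 0.11 (SE), with an adjusted p of 0.806.

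At the kinetochore the outer layer rose more uniformly than the inner one in counts of calls, 6 of 6 tested against 1 of 4. *CENPA*, the histone H3 variant that marks centromeres, was the inner member called, and it was at 1.92, 1.31 and 2.17 CPM in the low-shear libraries and at 5.52, 5.07 and 5.17 CPM in the high-shear libraries. Its groups did not overlap, and the log2 fold change was 1.55 ± 0.23 (SE), with an adjusted p of 0.0046. *CENPH*, *CENPK* and *CENPM*, subunits of the inner network that sits on *CENPA* chromatin, had log2 fold changes of 0.80, 0.71 and 1.26 with adjusted p-values of 0.0834, 0.0692 and 0.054. These are low transcripts, with means of 1.76 to 6.59 CPM at low shear, and the difference between the layers was not tested. *KNL1*, the outer platform on which checkpoint proteins gather, was at 10.3, 6.84 and 12.6 CPM in the low-shear libraries and at 33.4, 22.4 and 30.5 CPM in the high-shear libraries. Every high-shear value of *KNL1* was above the low-shear values, for a log2 fold change of 1.55 ± 0.12 (SE), with an adjusted p of 3.72e-04. *CENPE*, the kinesin that moves chromosomes to the spindle equator, was at 12.97, 8.59 and 16.1 CPM in the low-shear libraries and at 28.1, 20.3 and 25.1 CPM in the high-shear libraries. It too had groups that did not overlap, with a log2 fold change of 0.99 ± 0.14 (SE), with an adjusted p of 0.00331. *NDC80* and *NUF2*, of the complex that grips microtubules, rose by 1.49 and 1.75, their partner *SPC24* by 1.15, and *CENPF* by 1.45.

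Of the 10 mitotic kinesins 9 were called in hECs, with a median of 1.21, and *KIFC1*, at 0.0944 to 0.412 CPM, was not. *KIF15*, which helps to keep the spindle bipolar, had the largest change of the members and was at 2.96, 2.35 and 5.11 CPM in the low-shear libraries and at 14.2, 10.4 and 14.4 CPM in the high-shear libraries. Its highest low-shear value, in replicate 3, was below each high-shear value, and its log2 fold change was 1.94 ± 0.20 (SE), with an adjusted p of 9.50e-04. *KIF11* (Eg5), the motor that pushes spindle poles apart, was at 8.41, 16.3 and 13.3 CPM in the low-shear libraries and at 32.7, 23.4 and 30.8 CPM in the high-shear libraries. The groups of *KIF11* were apart, with the smallest gap between low-shear replicate 2 and high-shear replicate 2, and the log2 fold change was 1.21 ± 0.24 (SE), with an adjusted p of 0.016. *KIF20A* and *KIF4A*, of the midzone, rose by 1.80 and 1.68, and *KIF2C*, which shortens microtubules at centromeres, by 1.27. *KIF22* and *KIF14* had the smallest changes of the kinesins called, at 0.88 and 0.90.

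The 5 spindle microtubule proteins all rose, with a median of 1.62. *NUSAP1*, which bundles spindle microtubules and had the smallest p of the members, was at 10.4, 8.43 and 11.2 CPM in the low-shear libraries and at 33.6, 29.6 and 29.2 CPM in the high-shear libraries. The high-shear libraries lay far above the low-shear ones, and the log2 fold change was 1.62 ± 0.12 (SE), with an adjusted p of 2.59e-04. *TPX2*, the activator and spindle anchor of *AURKA*, was at 20.97, 26.3 and 23.98 CPM in the low-shear libraries and at 72.5, 49.02 and 59.02 CPM in the high-shear libraries. It likewise had no overlap and changed by 1.32 ± 0.16 (SE), with an adjusted p of 0.00186. *ASPM*, of spindle poles, and *DLGAP5* (HURP), of kinetochore fibres, rose by 1.81 and 1.75, and *HMMR* by 1.24.

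Cytokinesis and chromosome compaction had smaller changes at the median, 0.86 and 0.99. *PRC1*, which bundles the antiparallel microtubules of the midzone, was at 12.6, 13.6 and 14.5 CPM in the low-shear libraries and at 39.4, 28.8 and 32.2 CPM in the high-shear libraries. Its groups were apart, and the log2 fold change was 1.29 ± 0.13 (SE), with an adjusted p of 9.77e-04. *ANLN* (anillin, the scaffold of the contractile ring) and *RACGAP1* (a part of centralspindlin) rose by 0.89 and 0.83, whereas *ECT2*, the exchange factor that activates RhoA at the ring, was at 0.37 with an adjusted p of 0.0759. *SMC2*, a core ATPase of condensin, was at 33.4, 37.2 and 38.7 CPM in the low-shear libraries and at 63.96, 51.8 and 60.2 CPM in the high-shear libraries. The high-shear values were all higher, and the log2 fold change was 0.68 ± 0.10 (SE), with an adjusted p of 0.00489. *SMC4*, its partner, rose by 0.52, the smallest change among the members called, and the condensin I subunits *NCAPG* and *NCAPH* by 1.30 and 1.56. The 10 endothelial markers were lower in the same libraries, at 12179 to 14215 CPM at high shear against 14779 to 16156 CPM at low shear. The 10 smooth muscle and pericyte markers were lower too, at 399 to 624 CPM against 635 to 775 CPM, while 8 fibroblast markers, at 206 to 1081 CPM against 576 to 2239 CPM, and 10 epithelial markers, at 102 to 171 CPM against 165 to 511 CPM, overlapped between the shears. Sums were higher at high shear for 8 pluripotency markers, at 58.4 to 87.4 CPM against 26.9 to 36.3 CPM, with *POU5F1* at 0 in all hEC libraries, and 10 astrocyte, neuron and microglia markers, at 9.73 to 17.3 CPM against 4.25 to 9.58 CPM. Single genes weighed heavily in both sums. *L1TD1* reached 49.8 CPM, and the next highest pluripotency marker, *SALL4*, 19.7 CPM. In the other list *MBP* ranged from 2.61 to 14.02 CPM over the hEC libraries, and *SLC1A3* was next, at most at 2.82 CPM. *GFAP*, *RBFOX3* and *CSF1R* were at most at 0.218, 0.206 and 0.206 CPM. A rise of neural and glial markers as a class is thus not shown. The part of all these marker lists in the result was not tested.

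**Figure D2:**
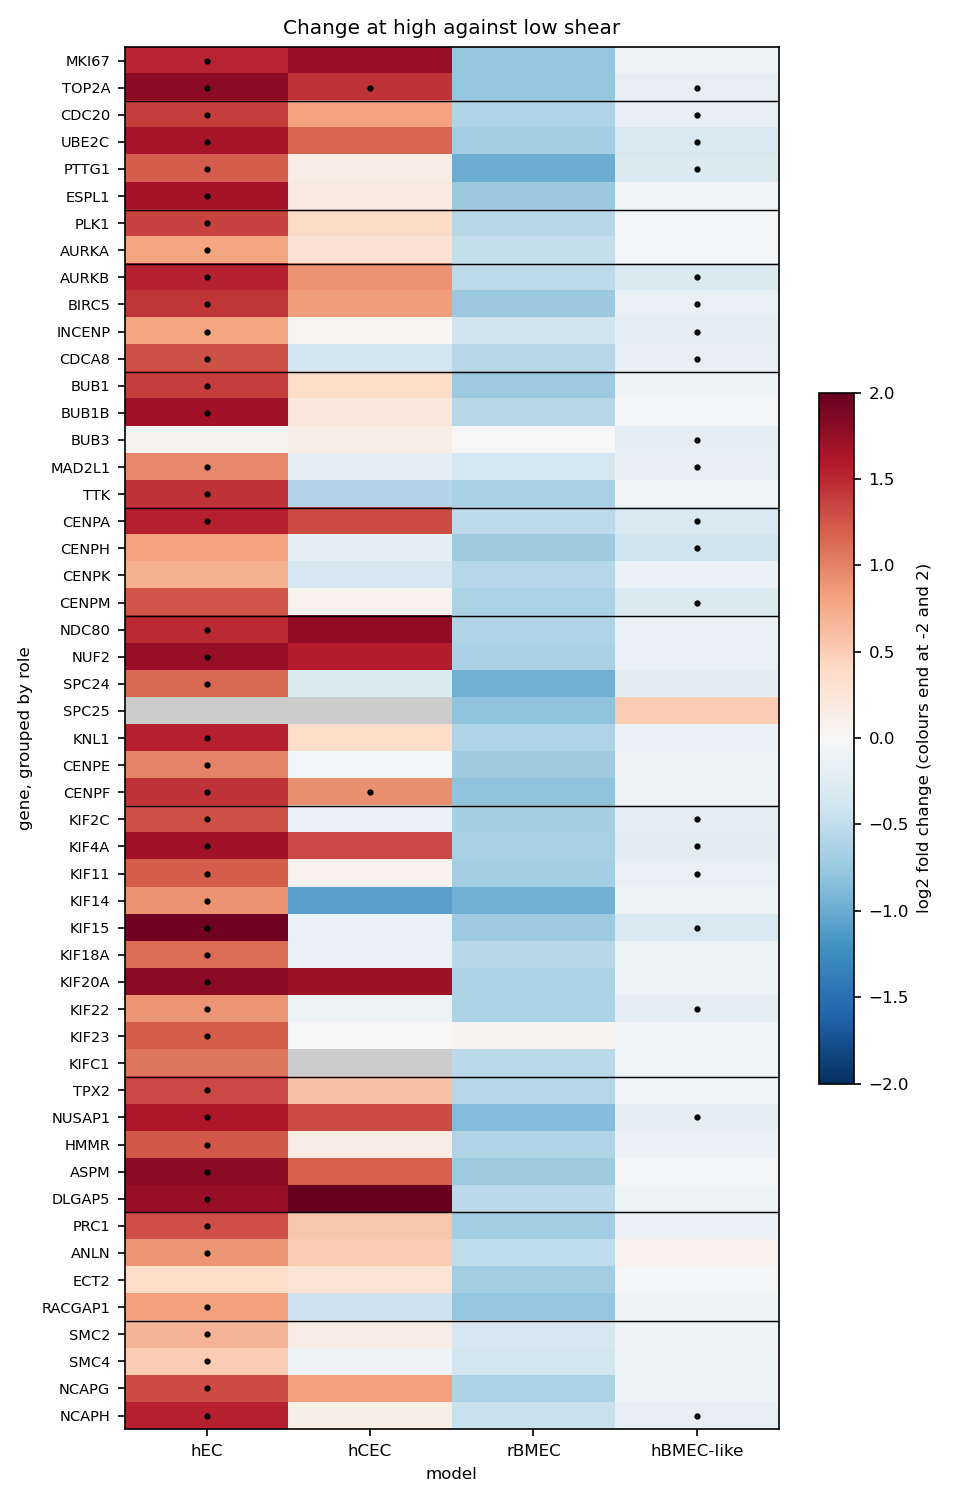
Log2 fold change at high against low shear (colour, ending at −2 and 2) of each member (rows, grouped by role between black lines) in each model (columns), with a dot where the adjusted p was under 0.05 and grey where the gene was not tested. The column of hECs is red with 44 dots, that of rBMECs is blue but for *KIF23* with 0, that of hBMEC-like cells is pale with 20 dots on falls, and that of hCECs holds both colours and 2 dots.

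In hBMEC-like cells the same genes were abundant and fell by little. Of 51 members tested 20 were lower and 0 higher, where 6.77% of 16452 genes were lower and 8.2% higher. The median log2 fold change was −0.11, against −0.0041 for all genes, and those called ran from −0.39 to −0.15. Every high-shear library lay below every low-shear library for 23 members (9.7% of all genes) and above it for *ANLN* and *SPC25* (9.07%), and 40 were lower in every pair (24.1% of all genes). Without the replicate block 0 members were called lower by edgeR (18 at an unadjusted p under 0.05), with DESeq2 14, and without replicate 2 the number was 13.

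Anaphase and inner kinetochore genes were among the largest falls. *UBE2C* was at 118, 112 and 112 CPM in the low-shear libraries and at 87.8, 92.3 and 90.96 CPM in the high-shear libraries. The groups were clearly apart, and the log2 fold change was −0.33 ± 0.047 (SE), with an adjusted p of 1.56e-05, the smallest p of the members. *PTTG1* and *CDC20* fell by 0.29 and 0.17 on the log2 scale, and *ESPL1*, at −0.061, was not called. *CENPH*, with the lowest fold change of the members, was at 44.2, 42.2 and 40.3 CPM in the low-shear libraries and at 29.7, 31.8 and 34.4 CPM in the high-shear libraries. No value at high shear reached those at low shear, for a log2 fold change of −0.39 ± 0.070 (SE), with an adjusted p of 2.34e-04. *CENPA* and *CENPM* were called as well, at −0.31 and −0.28, so the inner kinetochore had 3 of 4 members called lower while the outer layer had 0 of 7. Yet *SPC24*, *CENPF*, *NDC80*, *KNL1* and *NUF2* of the outer layer were negative too, at −0.22, −0.096, −0.14, −0.11 and −0.14. Their unadjusted p-values by edgeR were 0.012, 0.017, 0.029, 0.043 and 0.047. *CENPE* was negative with a larger p, and *SPC25* was positive. The difference between the layers was not tested.

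All 4 members of the chromosomal passenger complex fell in hBMEC-like cells. *AURKB* was at 95.3, 85.04 and 93.5 CPM in the low-shear libraries and at 71.99, 76.8 and 74.9 CPM in the high-shear libraries. Its groups did not overlap, and the log2 fold change was −0.28 ± 0.052 (SE), with an adjusted p of 3.23e-04. *INCENP*, *CDCA8* and *BIRC5* had log2 fold changes of −0.18, −0.16 and −0.15. In the checkpoint *BUB3* and *MAD2L1* were called lower. *BUB3* was at 126, 134 and 139 CPM in the low-shear libraries and at 108, 119.6 and 118 CPM in the high-shear libraries, without overlap, and its log2 fold change was −0.20 ± 0.044 (SE), with an adjusted p of 0.00183. *BUB1*, in contrast, was at 132, 137 and 129.8 CPM in the low-shear libraries and at 119, 124 and 132 CPM in the high-shear libraries. These values overlapped, and its log2 fold change was −0.079 ± 0.046 (SE), with an adjusted p of 0.276.

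The general marks were split. *TOP2A* was at 613, 583 and 641 CPM in the low-shear libraries and at 511, 528 and 601 CPM in the high-shear libraries, lower in each pair but with overlapping groups, and was called at −0.16 ± 0.038 (SE), with an adjusted p of 0.00485. *MKI67* was at 567, 513 and 547 CPM in the low-shear libraries and at 504, 482 and 554 CPM in the high-shear libraries. It was higher in replicate 3 at high shear, with a log2 fold change of −0.073 ± 0.039 (SE), with an adjusted p of 0.235. *PLK1* was at 160.0, 160.1 and 159.6 CPM in the low-shear libraries and at 151, 154 and 158 CPM in the high-shear libraries. Although all its high-shear values were lower, the log2 fold change was −0.044 ± 0.042 (SE), with an adjusted p of 0.552. *AURKA* was at −0.017.

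Of the kinesins *KIF2C*, *KIF4A*, *KIF11*, *KIF15* and *KIF22* were called lower, at −0.20, −0.21, −0.15, −0.31 and −0.19. *KIF11* was at 148, 147 and 148 CPM in the low-shear libraries and at 128, 128 and 140.5 CPM in the high-shear libraries, with all high-shear values lower. *NUSAP1* and *NCAPH* were the called members among the spindle proteins and condensin, at −0.18 and −0.16. *TPX2* was at 288, 281 and 289 CPM in the low-shear libraries and at 262, 264 and 299 CPM in the high-shear libraries, and *SMC2* was at 111, 112 and 104 CPM in the low-shear libraries and at 101, 107 and 102 CPM in the high-shear libraries. Both overlapped between shears and were not called, with log2 fold changes of −0.053 and −0.064.

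No member of the outer kinetochore or of cytokinesis was called in hBMEC-like cells. *CENPE* was at 93.99, 103 and 80.9 CPM in the low-shear libraries and at 91.7, 91.1 and 79.1 CPM in the high-shear libraries. Its groups overlapped although each pair was lower, and the log2 fold change was −0.076 ± 0.049 (SE), with an adjusted p of 0.342. *PRC1* was at 101, 103 and 105 CPM in the low-shear libraries and at 91.3, 95.2 and 96.2 CPM in the high-shear libraries, below in all high-shear libraries, with a log2 fold change of −0.12 ± 0.045 (SE), with an adjusted p of 0.0775. *SPC25*, with the largest value of the members, was at 0.526, 0.614 and 0.572 CPM in the low-shear libraries and at 1.24, 0.631 and 0.659 CPM in the high-shear libraries. All its high-shear values were above the low-shear ones, but they rest on few reads and the log2 fold change was 0.51 ± 0.48 (SE), with an adjusted p of 0.549. *ANLN* was the other member with a positive fold change, at 0.072 ± 0.042 (SE), with an adjusted p of 0.291.

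Several marker lists also moved with shear in these cells. The 8 fibroblast markers summed to 8401 to 9164 CPM at high and 7600.4 to 7933 CPM at low shear, the 10 smooth muscle and pericyte markers to 1067 to 1276 CPM and 906 to 1003 CPM, and the 8 pluripotency markers to 786 to 855 CPM and 890.1 to 966 CPM, with *POU5F1* at most at 0.0752 CPM. Their part in the falls was not tested.

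**Figure D3:**
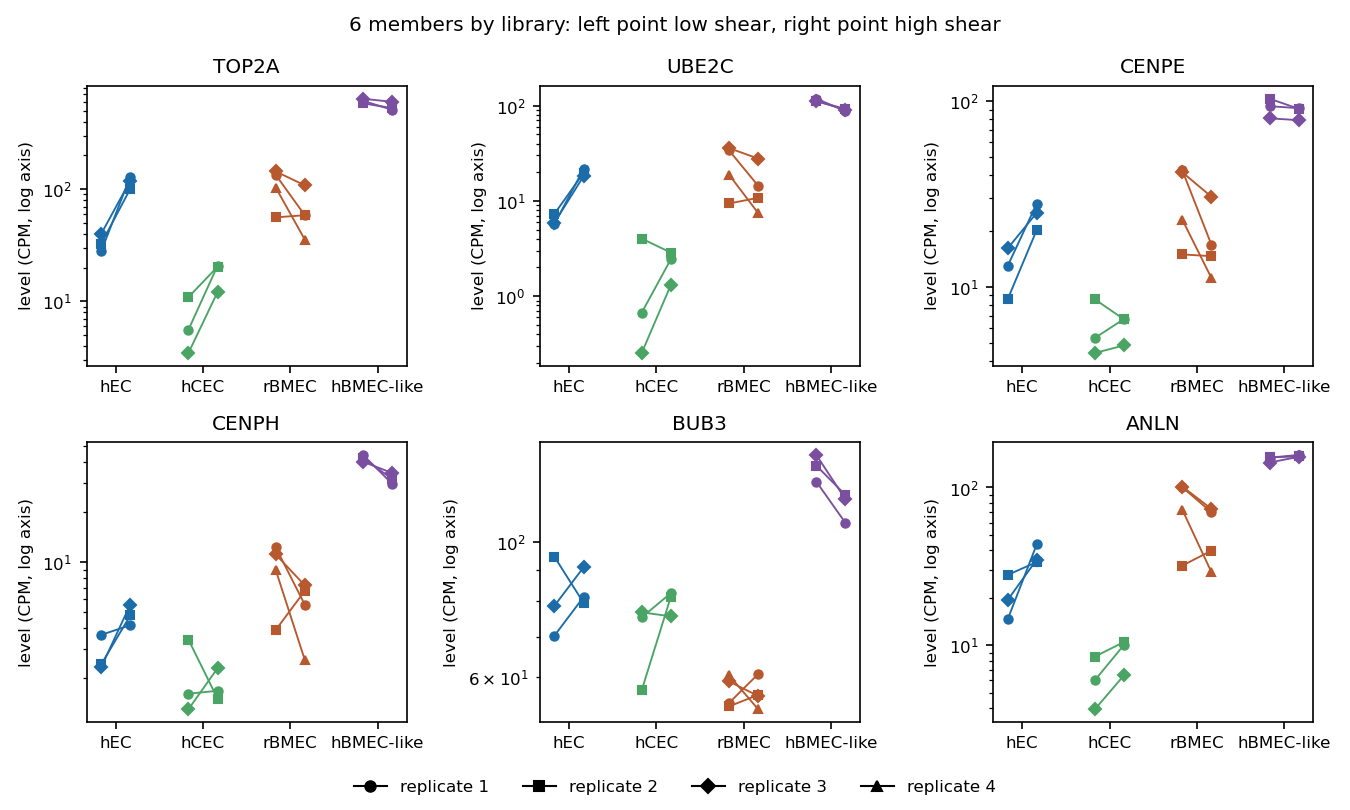
Level (y axis, CPM, log axis) of *TOP2A*, *UBE2C*, *CENPE*, *CENPH*, *BUB3* and *ANLN* in every library of each model (x axis), with low shear at the left and high shear at the right of each line and a line for each replicate number. *UBE2C* rises in all hEC pairs and falls in all hBMEC-like pairs, and *BUB3* has crossing lines in hECs. Replicate 2 of the rBMECs starts lowest of the rBMEC lines for each gene, though only narrowly for *BUB3*.

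In rBMECs nearly all members were lower at high shear, but the replicates differed and 0 passed the test, where 0.0366% of 13643 genes were lower and 0.088% higher by edgeR. At an unadjusted p under 0.05, 29 of 51 members were lower and 0 higher, against 5.37% of all genes lower and 4.01% higher. DESeq2 called 2 members lower. The fold change was negative for 50 of 51, with a median of −0.64 against −0.0091 for all genes. The median by replicate was −0.99, 0.21, −0.43 and −1.21, so replicate 2, in which 44 of 51 members were higher, went against the other 3, in which 50, 51 and 51 were lower. For 7 members high shear was lower in every pair (9.24% of all genes), and 1 had groups that did not overlap (2.38%). Without replicate 2 the median was −0.94 and 48 members were lower at an unadjusted p under 0.05, with 0 called. Without replicate 1, 3 or 4 that number was 11, 14 or 4, and without the block it was 7.

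*NUSAP1* had the smallest p of the members in rBMECs and was at 44.7, 19.98, 57.5 and 33.004 CPM in the low-shear libraries and at 21.1, 15.98, 33.9 and 13.2 CPM in the high-shear libraries. It was lower in all 4 pairs, though low-shear replicate 2 lay within the range of the high-shear libraries, and its log2 fold change was −0.87 ± 0.17 (SE), with an adjusted p of 0.169. *KIF15* was at 23.5, 14.98, 26.04 and 20.4 CPM in the low-shear libraries and at 14.03, 12.5, 14.2 and 10.1 CPM in the high-shear libraries. This was the member without overlap, at −0.72 ± 0.16 (SE), with an adjusted p of 0.214. *SPC24*, with the third smallest p, was at 23.4, 9.70, 22.6 and 15.2 CPM in the low-shear libraries and at 9.20, 10.6, 11.2 and 5.11 CPM in the high-shear libraries. Replicate 2 was higher at high shear and the others lower, and the log2 fold change was −0.96 ± 0.28 (SE), with an adjusted p of 0.385.

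*PTTG1* had the lowest fold change and was at 14.1, 4.61, 14.3 and 7.55 CPM in the low-shear libraries and at 3.66, 3.17, 12.1 and 3.14 CPM in the high-shear libraries. High-shear replicate 3 stood far above the other high-shear libraries, all 4 pairs were lower, and the log2 fold change was −0.99 ± 0.30 (SE), with an adjusted p of 0.393. *KIF23*, the kinesin of centralspindlin, was the member with a positive value and was at 68.7, 29.1, 74.1 and 45.6 CPM in the low-shear libraries and at 58.1, 53.1, 63.7 and 41.04 CPM in the high-shear libraries. Its pair of replicate 2 was higher at high shear and the others lower, for a log2 fold change of 0.058 ± 0.20 (SE), with an adjusted p of 0.976. *BUB3* was at 54.4, 53.7, 59.1 and 60.5 CPM in the low-shear libraries and at 60.7, 56.1, 55.9 and 53.2 CPM in the high-shear libraries. These 8 values lay within a narrow range, and its log2 fold change was −0.011 ± 0.10 (SE), with an adjusted p of 0.993.

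Both general marks had 3 of 4 pairs lower at high shear in rBMECs. *TOP2A* was at 134, 56.2, 144 and 103 CPM in the low-shear libraries and at 58.6, 58.7, 108 and 35.5 CPM in the high-shear libraries. *MKI67* was at 190.4, 78.4, 217 and 173 CPM in the low-shear libraries and at 90.5, 81.6, 149.8 and 59.98 CPM in the high-shear libraries. In both, replicate 2 was slightly higher at high shear and the other pairs were lower, with log2 fold changes of −0.77 and −0.77 and adjusted p-values of 0.423 and 0.411. *UBE2C* was at 33.9, 9.40, 35.9 and 18.9 CPM in the low-shear libraries and at 14.4, 10.8, 27.8 and 7.47 CPM in the high-shear libraries, and *PLK1* was at 35.2, 11.4, 36.5 and 18.6 CPM in the low-shear libraries and at 15.3, 14.2, 29.7 and 9.32 CPM in the high-shear libraries. Their low-shear replicates 1 and 3 were high and low-shear replicate 2 low, and their log2 fold changes were −0.69 ± 0.27 (SE) and −0.55 ± 0.25 (SE). *AURKB* and *BUB1* had log2 fold changes of −0.52 ± 0.25 (SE) and −0.73 ± 0.25 (SE), and *KIF11* one of −0.68 ± 0.22 (SE).

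*CENPA* was at 16.3, 4.79, 14.8 and 9.76 CPM in the low-shear libraries and at 5.72, 7.61, 13.7 and 4.42 CPM in the high-shear libraries and *CENPE* at 42.5, 14.98, 41.4 and 23.1 CPM in the low-shear libraries and at 16.9, 14.6, 30.6 and 11.2 CPM in the high-shear libraries. *CENPE* was lower in all pairs and *CENPA* in 3 of 4, with log2 fold changes of −0.71 ± 0.22 (SE) and −0.53 ± 0.36 (SE). *TPX2* was at 67.5, 21.9, 68.3 and 44.8 CPM in the low-shear libraries and at 31.4, 25.5, 58.6 and 19.8 CPM in the high-shear libraries, and *PRC1* was at 96.1, 33.1, 95.3 and 61.6 CPM in the low-shear libraries and at 44.1, 33.6, 75.6 and 25.7 CPM in the high-shear libraries. Replicate 2 was again higher at high shear in both while the others were lower, and the log2 fold changes were −0.57 ± 0.24 (SE) and −0.68 ± 0.22 (SE). *SMC2* was at 86.5, 54.6, 93.5 and 81.7 CPM in the low-shear libraries and at 66.5, 57.1, 66.5 and 56.1 CPM in the high-shear libraries, which overlapped, at −0.34 ± 0.12 (SE). *SPC25* and *KIFC1*, near 0 in the human tables, were measured well in the rat, at 8.79 ± 3.71 and 29.8 ± 11.5 CPM at low shear (mean ± SD, n = 4), and had log2 fold changes of −0.81 and −0.54. Among markers, high-shear replicate 1 had the lowest endothelial sum, 9729.8 CPM where other rBMEC libraries had at least 14082 CPM, and the highest epithelial sum, 227 CPM. Nearly all of that epithelial sum was *KRT7*, at 219 CPM. *KRT8*, *CDH1* and *EPCAM* were at most at 3.91, 2.95 and 0.317 CPM in any rBMEC library. Without replicate 1 the median of the members was −0.50.

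**Figure D4:**
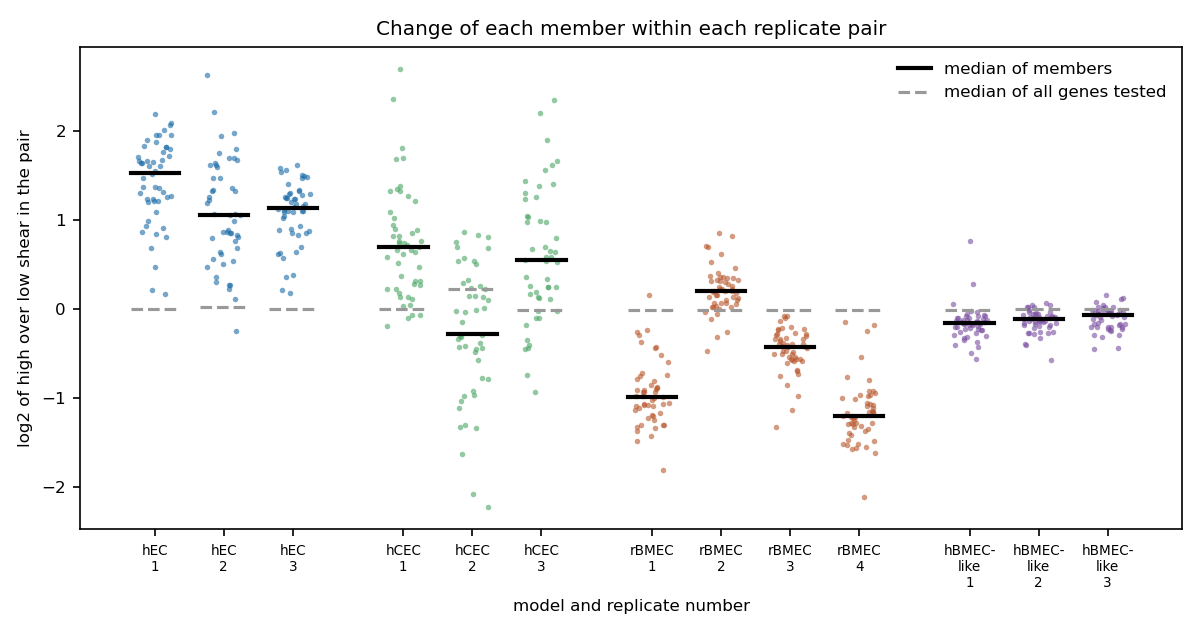
Log2 of the high-shear over the low-shear level (y axis) of each member tested (points) in each replicate pair of each model (x axis), with the median of the members as a black bar and that of all genes tested as a grey dashed bar. The black bars lie at 1.53, 1.06 and 1.13 in hECs and below the grey bars in hBMEC-like cells, while in rBMECs that of replicate 2 is at 0.21 and the others are below 0.

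In hCECs the members had the lowest summed levels, and their changes varied between replicates. Of 49 tested (*SPC25* and *KIFC1* had too few counts), *TOP2A* and *CENPF* were higher and 0 lower, where 2.04% of 14969 genes were higher and 1.2% lower. The median was 0.23, against −0.019 for all genes, and by replicate it was 0.70, −0.28 and 0.55, with all genes at 0.22 in replicate 2. Every high-shear library was above every low-shear library for 4 members (13.2% of all genes). Without replicate 2, which holds the shallow library, 20 members were higher and the median was 0.70, without replicate 1 the number was 0, and with scaling by library totals alone or without the block it was 0 as well. Scaling by totals moved the median of all genes to −0.13 and that of the members to 0.12.

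*TOP2A* was at 5.60, 10.9 and 3.47 CPM in the low-shear libraries and at 20.8, 20.4 and 12.1 CPM in the high-shear libraries in hCECs. The groups did not overlap, and the log2 fold change was 1.45 ± 0.29 (SE), with an adjusted p of 0.0341. *CENPF*, a large protein of the outer kinetochore, was at 11.3, 13.6 and 9.30 CPM in the low-shear libraries and at 27.99, 22.2 and 18.9 CPM in the high-shear libraries, also without overlap, at 0.93 ± 0.19 (SE), with an adjusted p of 0.0372. *MKI67*, with the third smallest p, was at 4.18, 18.1 and 1.48 CPM in the low-shear libraries and at 23.5, 26.5 and 8.63 CPM in the high-shear libraries. Low-shear replicate 2 exceeded high-shear replicate 3, but all pairs were higher at high shear, with a log2 fold change of 1.74 ± 0.43 (SE), with an adjusted p of 0.0753. *DLGAP5* had the largest value and was at 0.236, 2.88 and 0.289 CPM in the low-shear libraries and at 4.29, 2.87 and 1.59 CPM in the high-shear libraries. Here low-shear replicate 2 was far above the other low-shear libraries, and the log2 fold change was 2.10 ± 1.06 (SE), with an adjusted p of 0.439. *KIF14* had the lowest value and was at 1.30, 7.21 and 1.05 CPM in the low-shear libraries and at 1.48, 1.14 and 0.672 CPM in the high-shear libraries. The lower mean rests on low-shear replicate 2, since the other pairs differed little and in both directions, and the log2 fold change was −1.09 ± 0.86 (SE), with an adjusted p of 0.64.

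The same library was high for members of most roles. *UBE2C* was at 0.670, 4.02 and 0.253 CPM in the low-shear libraries and at 2.44, 2.87 and 1.31 CPM in the high-shear libraries, and *AURKB* was at 0.867, 5.46 and 0.326 CPM in the low-shear libraries and at 2.67, 2.98 and 1.45 CPM in the high-shear libraries. In both, replicate 2 was lower at high shear and the other pairs were higher, with log2 fold changes of 1.16 ± 0.90 (SE) and 0.90 ± 0.88 (SE). *CENPE* was at 5.32, 8.58 and 4.41 CPM in the low-shear libraries and at 6.73, 6.69 and 4.85 CPM in the high-shear libraries, with the same order and a log2 fold change of −0.043 ± 0.40 (SE). *TPX2* was at 8.83, 10.5 and 7.89 CPM in the low-shear libraries and at 15.1, 15.99 and 12.1 CPM in the high-shear libraries, above in every high-shear library, but its adjusted p was 0.29. *SMC2* and *BUB3*, which were higher in level, had log2 fold changes of 0.14 ± 0.12 (SE) and 0.12 ± 0.13 (SE). Low-shear replicate 2 also had 70.4 CPM of the 10 astrocyte, neuron and microglia markers, where high-shear hCECs had 8.01 to 10.8 CPM. Its sum of the 8 fibroblast markers was high too, at 235 CPM against 22.8 to 74.4 CPM at high shear. The rise was thus not limited to neural and glial markers. Its sum of smooth muscle and pericyte markers, 299 CPM, was the lowest of the hCECs, but the single markers were split. *CSPG4*, *PDGFRB*, *TAGLN*, *CNN1*, *MYOCD* and *DES* peaked in this library, at 14.6, 12.7, 5.46, 5.39, 5.08 and 4.93 CPM. The abundant *RGS5* and *NOTCH3*, at 138 to 386 and 79.7 to 143 CPM over the hCECs, and *ACTA2* peaked in others. *KRT7*, *CDH1* and *LIN28A* also peaked here, at 12.5, 7.51 and 6.37 CPM, whereas *KRT18*, *CLDN7* and *NANOG* did not. The part of these markers in the values of this library was not tested.

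Joint fits of model pairs gave a test of whether the change with shear differed (the interaction term). Against hECs, hBMEC-like cells had a lower change for 46 of 51 members and a higher one for 0, where 5.63% of 17943 genes were lower and 7.96% higher. The median difference was −1.43 on the log2 scale, and *BUB3*, *SPC25*, *KIFC1*, *ANLN* and *ECT2* were not called. The smallest p-values were those of *NUSAP1* at −1.79 ± 0.11 (SE, adjusted p = 2.24e-05), *UBE2C* at −1.96 ± 0.13 (SE, adjusted p = 2.24e-05) and *BIRC5* at −1.58 ± 0.10 (SE, adjusted p = 2.50e-05). *KIF15* had the most negative difference, −2.23 ± 0.19 (SE, adjusted p = 1.07e-04). *ANLN*, the contractile ring scaffold that rose in hECs, had a difference of −0.80 ± 0.25 (SE, adjusted p = 0.064).

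Against hECs, rBMECs had a lower change for 36 of 51 members and a higher one for 0, where 2.16% of 13056 genes shared by symbol were lower and 1.85% higher. The median difference was −1.95. *KIF15* had −2.67 ± 0.27 (SE, adjusted p = 0.0022), *TOP2A* −2.57 ± 0.37 (SE, adjusted p = 0.01) and *NUSAP1* −2.50 ± 0.24 (SE, adjusted p = 0.0022). For *BUB3* the difference was −0.062 ± 0.15 (SE, adjusted p = 0.942), and *MAD2L1*, the 4 inner kinetochore members, *SPC25*, *KIF2C*, *KIF14*, *KIF23*, *KIFC1*, *ANLN*, *ECT2*, *RACGAP1* and *SMC4* also missed the threshold. This count moved with single libraries, to 2 without hEC replicate 1, 16 without hEC replicate 2, 7 without hEC replicate 3, 19 without rBMEC replicate 3, 22 without rBMEC replicate 4 and 42 without rBMEC replicate 2, and it was 12 without the block. The direction was lower for all 51 members in the main fit, and the median ranged from −2.26 to −1.78 over the alternatives.

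Fewer members were called in the contrasts with hCECs. Against hECs, *KIF22* alone was called, with a lower change in hCECs of −0.95 ± 0.17 (SE, adjusted p = 0.0463), where 0.267% of 16477 genes were lower and 0.492% higher. The median difference of the 49 members was −0.87, and the standard errors reached 1.26, so these data do not show that the members respond alike in hECs and hCECs. *KIF15*, for example, differed by −2.11 ± 0.68 (SE, adjusted p = 0.278). rBMECs had lower changes than hCECs for *NUSAP1*, −2.16 ± 0.37 (SE, adjusted p = 0.0255), and *TOP2A*, −2.24 ± 0.42 (SE, adjusted p = 0.0337), where 0.632% of 12979 genes were lower and 0.917% higher. hBMEC-like cells had lower changes than hCECs for 6 members, *NDC80*, *TOP2A*, *CENPF*, *NUSAP1*, *TPX2* and *KIF4A*, where 1.41% of 18049 genes were lower and 3.13% higher. *NDC80*, of the microtubule-gripping complex, had the largest of these, −1.92 ± 0.35 (SE, adjusted p = 0.0278), and *TPX2* the smallest, −0.71 ± 0.14 (SE, adjusted p = 0.0397). The number was 30 without hCEC replicate 2, 3 without hCEC replicate 3, and 0 without hCEC replicate 1 or any single hBMEC-like replicate. For hCECs against hECs it was 4 without hCEC replicate 2 and 0 when any other library pair was left out. For rBMECs against hCECs it was 3 without hCEC replicate 2 or rBMEC replicate 2, 1 without hCEC replicate 3, and 0 without hCEC replicate 1 or rBMEC replicate 1, 3 or 4. Since these contrasts share the libraries of a model, they are not separate tests of that model's change.

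The models also differed in the level of the members at low shear. Over the 3 human models, scaled together and compared at low shear, 50 of 51 members were higher in hBMEC-like cells than in hECs and 0 lower, where 27.2% of 18712 genes were higher and 28.1% lower. The median log2 difference in level was 3.38, and *SPC25* was the member not called. *KIF22*, a kinesin that binds chromosome arms and had the smallest p, was at 161 ± 8.96 CPM in hBMEC-like cells and at 17.6 ± 0.988 CPM in hECs (mean ± SD, n = 3), a log2 difference of 3.20 ± 0.11 (SE, adjusted p = 5.02e-12). *BUB1B* had the largest difference, 4.07 ± 0.37 (SE, adjusted p = 1.49e-07), and *BUB3* the smallest, 0.53 ± 0.12 (SE, adjusted p = 0.00125).

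In hCECs 32 members were lower than in hECs at low shear and 0 higher, where 5.71% of genes were lower and 5.85% higher. The median log2 difference in level was −1.37, with all genes at 0.12. *CENPF* was at 11.4 ± 1.55 CPM in hCECs and at 48.1 ± 14.8 CPM in hECs (mean ± SD, n = 3), a log2 difference of −2.01 ± 0.23 (SE, adjusted p = 6.62e-05). *TPX2* was at 9.08 ± 0.831 and 25.1 ± 2.7 CPM, a log2 difference of −1.40 ± 0.16 (SE, adjusted p = 6.62e-05). *DLGAP5* had the largest difference, −3.40 ± 0.62 (SE, adjusted p = 0.0028), while *BUB3*, *INCENP*, *SMC4* and *CENPK* were among the 19 not called, at −0.22, −0.28, −0.54 and −0.33. Without low-shear replicate 2 of the hCECs 46 members were lower, and without low-shear replicate 3 of the hECs 20.

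**Figure D5:**
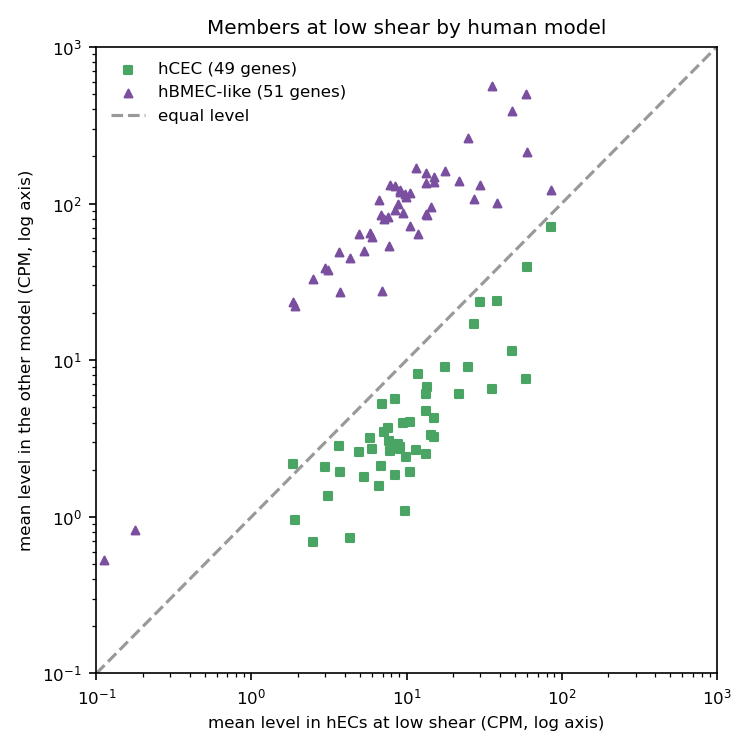
Mean level at low shear of each member in hCECs (squares) or hBMEC-like cells (triangles) on the y axis against its mean level in hECs on the x axis (both CPM after joint scaling, log axes), for members above 0.1 CPM in both. The triangles lie above the dashed line of equal level, the nearest being *BUB3* at 123 against 85.8 CPM, and all squares but that of *CENPM* lie below it.

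Levels can be set side by side between genes only per length. Per kilobase of the gene length in the tables, the median member was at 2.53 CPM in low-shear hECs and 0.866 CPM in hCECs, whereas rBMECs had 7.47 and hBMEC-like cells 22.9 CPM, where each model was scaled on its own. *BUB3* had the highest level per kilobase of the members in hECs, hCECs and rBMECs, at 10.3, 8.87 and 37.1 CPM, whereas *CDC20*, *TOP2A* and *UBE2C* led in hBMEC-like cells, at 111, 105 and 90.4 CPM. *SMC4* was next in hECs and hCECs, at 9.18 and 6.33 CPM.

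Other genes of the cell cycle, in 7 lists, were read beside the members. In hECs 31 of 54 other spindle and kinetochore genes rose and 0 fell, with a median of 0.72. *FAM83D*, which brings a kinase to the spindle, rose by 1.58 ± 0.10 (log2 ± SE, adjusted p = 1.70e-04), and citron kinase, *CIT*, of the midbody by 1.56 ± 0.13 (adjusted p = 4.90e-04). Of 25 genes of mitotic entry and exit 11 rose, and those with the smallest p-values were cyclin A (*CCNA2*) at 1.61 ± 0.10 (adjusted p = 1.68e-04) and the B cyclins *CCNB2* and *CCNB1* at 1.56 ± 0.14 and 1.21 ± 0.12. S phase genes rose in 11 of 26, with a median of 0.74, among them *TYMS*, thymidylate synthase, at 1.11 ± 0.10. Other condensin and cohesin genes rose in 5 of 16. Of 15 transcription regulators of these genes *FOXM1* and *NFYC* rose, at 1.83 ± 0.14 and 0.28 ± 0.075 (adjusted p = 3.10e-04 and 0.0493). Of 11 cycle inhibitors *CDKN2B*, the CDK4 and CDK6 inhibitor p15, fell by 1.64 on the log2 scale (adjusted p = 0.00294) and *TOB1* rose by 0.62 ± 0.15. The counts of all these lists, and above all the low ones of regulators and inhibitors, are to be read against all genes. Of those, 7.87% were higher and 8.23% lower in hECs. Of 10 tubulins 0 passed the test by edgeR, with 1 higher and 2 lower at an unadjusted p under 0.05, where 14.6% of all genes were higher and 14.7% lower.

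In hBMEC-like cells the same lists had 11 of 54, 6 of 25 and 11 of 26 genes lower and 0 higher for spindle, entry and exit, and S phase, with medians of −0.086, −0.11 and −0.12. *CDT1*, the licensing factor of replication, was at −0.30 ± 0.045 (adjusted p = 2.75e-05) and *CCNB2* at −0.21 ± 0.047 (adjusted p = 0.00201). Condensin and cohesin genes had 1 higher and 2 lower of 16, and 3 of 15 regulators were lower, counts to be read against the 8.2% of all genes higher and 6.77% lower, with *RBL1* at −0.34 ± 0.084 among them. *CDKN2B* and *CDKN1A* (p21) were higher, at 0.29 ± 0.043 and 0.30 ± 0.051, and *GAS1* was 1 of 2 inhibitors that were lower, at −0.53 ± 0.072. Of 10 tubulins, the building blocks of microtubules, 5 were higher and 1 lower, with a median of 0.36. *TUBB3*, *TUBB6* and *TUBA1A* had log2 fold changes of 0.56 ± 0.069, 0.47 ± 0.056 and 0.37 ± 0.044.

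In rBMECs 0 genes of the 7 lists passed the test by edgeR, while at an unadjusted p under 0.05 25 of 55 spindle genes, 11 of 25 of entry and exit and 4 of 26 of S phase were lower and 0 higher. At that threshold 5.37% of all genes were lower and 4.01% higher. Of 10 cycle inhibitors 2 were lower and 2 higher. The medians were −0.56 for 55 spindle genes, −0.46 for entry and exit and −0.38 for S phase, and *FOXM1* was at −0.66 ± 0.21 (adjusted p = 0.406). In hCECs the 1 gene called in the lists was *GAS1*, a growth arrest gene, which fell by 0.85 on the log2 scale (adjusted p = 0.0436), and *FOXM1* was at 1.28 ± 0.47 (adjusted p = 0.263). That count is to be read against all 14969 genes tested in hCECs, of which 1.2% were lower and 2.04% higher.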

How the data were processed

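RNA-seq libraries of 26 cultures were used. According to the study's methods the authors aligned reads with STAR to hg38 (human) or rn7 (rat) and counted reads per gene with featureCounts, while the labels give hg38 also for the rat. The deposited values are raw counts per gene, without normalization. The annotation and the handling of strand and of reads shared by genes are not given in the sources used here. The human tables have 6 lines, and that of the rat 5, with a gene name and no values, which were dropped. No 2 libraries agreed within sampling noise.

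High and low shear were compared with edgeR 4.0.16 in R 4.3.3 (quasi-likelihood F test, TMM, filterByExpr with a minimum count of 10 and a minimum total of 15), blocked by replicate number, since the study split each differentiation or isolation between the shears. The p-values were adjusted over all genes tested by the method of Benjamini and Hochberg, and calls are at an adjusted p under 0.05. The standard error is the absolute log2 fold change divided by the square root of F. Interactions were fitted in pairs of models with blocks for the replicates of each model, and low-shear levels in a joint fit of the human groups without a block. Rat and human genes were matched by symbol. Changes within a pair were taken from CPM with 0.5 CPM added. The procedure was tested on simulated data. Deviations from the group means correlated best with the same replicate number except for hCEC replicate 2 (r of 0.0533 against 0.0671) and rBMEC replicate 4 (0.0990 against 0.333).

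The members, the lists and the tests were chosen with earlier results of these data known. Values in every library are given for fixed members of each role and, per model, for the 3 members with the smallest p and those with the largest and smallest fold change, other members and the lists by counts, medians and single values. From the lists up to 3 genes per model, those with the smallest p, were named. *AURKA*, *ANLN*, *ECT2*, *SPC25* and *KIFC1* are also given where they depart from their role. Promoters are from RefSeq (GRCh38.p14), and none was used for the rat. Alternatives were scaling by DESeq2's RLE factors or by totals, no filter on low counts, the fit without (for levels, with) the replicate block, DESeq2 1.42.0 and each replicate left out. The authors' comparisons, proteins and rat promoters were not used.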

Additional observations from a re-analysis of the deposited data

Results flagged for a closer look

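In rBMECs at high shear the level of 2 members had a library far from the other 3. For *PTTG1* the gap of replicate 3 (12.1 CPM) to the nearest library was 0.942 of the whole range, and for *ASPM* (41.3 CPM) it was 0.830, both above Dixon's critical value for 4 samples. These were 2 of 56 groups screened. Chance passes about 1 of 20 separate groups, but these groups share the same libraries, so the 2 cannot be set against a number expected by chance. Both values are of high-shear replicate 3, which also had the highest summed level of the high-shear rBMEC libraries, 1741 CPM.

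The change with shear differed between models by the interaction test. Against hECs it was lower in hBMEC-like cells for 46 members, among them *NUSAP1* (−1.79 on the log2 scale), *UBE2C* (−1.96) and *BIRC5* (−1.58), and in rBMECs for 36, among them *NUSAP1* (−2.50), *KIF15* (−2.67) and *TOP2A* (−2.57). In hCECs it was lower than in hECs for 1 member, *KIF22* (−0.95). Compared with hCECs the change was lower in rBMECs for 2 members, *NUSAP1* (−2.16) and *TOP2A* (−2.24), and in hBMEC-like cells for 6, *NDC80* (−1.92), *TOP2A* (−1.68), *CENPF* (−1.11), *NUSAP1* (−1.46), *TPX2* (−0.71) and *KIF4A* (−1.55). Their causes were not tested.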

How the results depend on the processing

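The counts of members higher in hECs (41 to 48), lower in hBMEC-like cells against hECs (43 to 48) and higher in level in hBMEC-like cells (49 to 50) stayed within 1.5 times under the other scalings, without the filter, with the block left out (or, for levels, put in) and with DESeq2. The replicate block mattered elsewhere. Without it, 0 members were higher in hCECs, 0 lower in hBMEC-like cells, 12 lower in rBMECs against hECs, and 0 in hCECs against hECs, in rBMECs against hCECs and in hBMEC-like cells against hCECs, whereas adding it to the low-shear levels gave 31 members lower in hCECs and 50 higher in hBMEC-like cells. Scaling by totals alone gave 0 members higher in hCECs and 0 lower in both contrasts with hCECs, RLE factors gave 1 in rBMECs against hCECs, and no filter gave 1 lower in rBMECs and 0 in hCECs against hECs. DESeq2 gave 2 lower in rBMECs, 5 in hCECs against hECs and 6 in rBMECs against hCECs. The causes were not tested.

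With each replicate left out in turn, the members called ranged from 30 to 46 (hECs, higher), 0 to 20 (hCECs, higher), 0 to 0 (rBMECs, lower) and 13 to 17 (hBMEC-like cells, lower). The contrasts with hECs had 42 to 49 (hBMEC-like), 2 to 42 (rBMECs) and 0 to 4 (hCECs) members lower, those with hCECs 0 to 3 (rBMECs) and 0 to 30 (hBMEC-like), and the levels at low shear 20 to 46 lower (hCECs) and 49 to 50 higher (hBMEC-like). No member was called in the opposite direction in any of these fits. Signs turned for *BUB3* in hECs (−0.031 to 0.21) and rBMECs (−0.061 to 0.057), *KIF23* in rBMECs (−0.21 to 0.17, and −0.013 without the block), and *AURKA* (−0.068 to 0.061) and *BUB1B* (−0.060 to 0.019) in hBMEC-like cells, given as the range of the log2 fold change with each replicate left out, none of them called. Over the genes named, 905 recomputed values kept direction and side of the threshold, 102 lost the call, 11 gained it and 8 changed sign. *SPC25* and *KIFC1* rest on few human reads, and 3 or 4 replicates a group limit all tests.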
